A study of Mus musculus with 21 samples.

Results

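The genes described here are 6 keratin genes (Krt7, Krt8, Krt17, Krt18, Krt19 and Krt42) and 3 genes of trophoblast transcription factors (Gata3, Elf5 and Ascl2), 9 of the 24458 genes measured. They were chosen by name, with earlier results of these data known, as were the gene lists below. RNA was sequenced from embryoid bodies, the aggregates in which mouse embryonic stem cells differentiate. The stem cells were V6.5 lines of a mixed 129/C57BL/6 strain at passages 15-18, grown with serum and LIF on gelatin, and were wild type or had lost Cxxc5. Its protein, which the labels call Rinf, carries a CXXC finger, a domain that binds unmethylated CpG. Hanging drop cultures were sampled at days 0, 3 and 6. Each genotype had 2 stem cell lines that the labels call independent and gave 2 libraries at each time, 12 libraries in all. The wild type and knockout groups carry no other named allele or agent, and which stretch of Cxxc5 was deleted is not stated in the material used here.

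Keratins are the intermediate filament proteins of epithelial cells, and each filament pairs a type I keratin (here Krt17, Krt18, Krt19 and Krt42) with a type II keratin (here Krt7 and Krt8). Krt8 and Krt18 are the first pair made in the embryo, where they mark the trophectoderm, the outer layer that forms the placenta, and later other simple epithelia. Gata3 is a zinc finger factor of the trophectoderm, Elf5 an ETS factor that helps to maintain trophoblast stem cells, and Ascl2 an imprinted basic helix-loop-helix factor of the trophoblast progenitors of the spongiotrophoblast.

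Levels are FPKM, fragments scaled to transcript length and to the mapped fragments of a library, so that genes can be compared per length. Differences are log2(FPKM + 1), which understates changes of low genes, tested with limma over all 12 libraries and 12472 genes whose mean FPKM reached 1. A gene is called past the threshold at a Benjamini-Hochberg adjusted p under 0.05. Elf5 lay under the minimum, and 8 members were tested. Krt7, Gata3 and Ascl2, and Krt17 by its day 0 libraries, passed that minimum through the libraries in which they were high. A count over the tested members is thus a description. The 2 libraries of a group allow an exact permutation p no lower than 0.333, and p-values measure the spread between these lines.

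Cxxc5 had an FPKM of 25.1 to 52.3 in the 6 wild type libraries and 5.05 to 11.9 in the 6 knockout libraries. The knockout lines also had lower levels of 3 Y-linked genes: Eif2s3y was at 9.40 to 20.4 FPKM in wild type libraries and at 1.40 to 3.92 in knockout libraries, Uty at 3.29 to 6.45 and 0.488 to 2.14, and Ddx3y at 2.13 to 4.01 and 0.591 to 1.76. The part of this difference between the lines in any result below was not tested. Depth, estimated from the steps of the low FPKM values, lay between 15.3 and 32.7 M reads per library. The summed FPKM of 8 stem cell genes was 3350 to 3461 in the 4 libraries of day 0 and 309 to 883 in those of day 6. In these bulk samples fewer cells of a type and less RNA per cell cannot be told apart.

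The genes of the pair Krt8 and Krt18 lie side by side on chromosome 15 of the mouse (GRCm38.p6, the build of mm10), Krt8 at 101996711 to 102004342 on the minus strand and Krt18 at 102028216 to 102032026 on the plus strand, 23.9 kb apart with 0 protein-coding genes between them. Krt7 lies at 101412403 to 101427806 on the plus strand, 568.9 kb from Krt8. Krt42 (chromosome 11, 100262882 to 100269951) and Krt17 (100256215 to 100261029) are also neighbours, 1.9 kb apart on the minus strand, with 0 protein-coding genes between them. Krt19 lies at 100140810 to 100145926, 110.3 kb from Krt17. Gata3 lies on chromosome 2 at 9857078 to 9887953 (minus strand), Elf5 on chromosome 2 at 103412098 to 103450989 (plus strand) and Ascl2 on chromosome 7 at 142966822 to 142969264 (minus strand).

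Because the protein lost in the knockout has a domain that binds unmethylated CpG, the 250 bases before the start are shown for 4 keratin genes, 5′ to 3′ on the gene's strand, from RefSeq on GRCm38.p6, with each CG in capitals. Krt8 and Krt18, the pair whose levels were nearly equal, are shown for comparison with each other, and Krt7 and Krt42 for the different number of CG they carry.
Krt8, minus strand, chr15:102004343-102004592: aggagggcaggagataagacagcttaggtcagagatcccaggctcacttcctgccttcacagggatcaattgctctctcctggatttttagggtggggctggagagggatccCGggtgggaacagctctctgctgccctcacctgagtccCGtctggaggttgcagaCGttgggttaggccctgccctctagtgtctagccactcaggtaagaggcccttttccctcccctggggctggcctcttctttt
Krt18, plus strand, chr15:102027966-102028215: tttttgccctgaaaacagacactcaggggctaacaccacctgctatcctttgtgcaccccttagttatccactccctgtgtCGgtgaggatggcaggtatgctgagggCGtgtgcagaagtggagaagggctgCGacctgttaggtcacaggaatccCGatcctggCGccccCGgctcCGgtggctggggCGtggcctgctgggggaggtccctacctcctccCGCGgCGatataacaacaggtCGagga
Krt7, plus strand, chr15:101412153-101412402: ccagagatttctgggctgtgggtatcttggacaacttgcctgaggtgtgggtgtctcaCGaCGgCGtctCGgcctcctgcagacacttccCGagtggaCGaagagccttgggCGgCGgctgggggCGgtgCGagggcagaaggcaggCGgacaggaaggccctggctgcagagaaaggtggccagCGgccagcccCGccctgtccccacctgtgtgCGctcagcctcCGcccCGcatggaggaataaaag
Krt42, minus strand, chr11:100269952-100270201: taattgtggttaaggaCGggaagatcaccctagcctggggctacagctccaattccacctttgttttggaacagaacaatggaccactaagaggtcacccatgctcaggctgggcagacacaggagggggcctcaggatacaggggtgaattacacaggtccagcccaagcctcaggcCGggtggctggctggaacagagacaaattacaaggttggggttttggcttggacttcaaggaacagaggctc
The Krt8 window held 3 CG, that of Krt18 12, that of Krt7 16 and that of Krt42 2. Over 32851 RefSeq windows of 250 bases the median was 6, with quartiles of 2 and 16. The Krt8 and Krt18 windows thus differ in CG content, and each holds the letters GATAA on one strand or the other, as do 22.6% of all windows. TATAA was found in the Krt18 window, as in 22.8% of all windows. The windows of Gata3 and Ascl2 each had 19 CG and those of Elf5 2 and 8, while for Krt17 and Krt19 none is shown. These matches describe the letters of these windows alone.

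**Figure D1:**
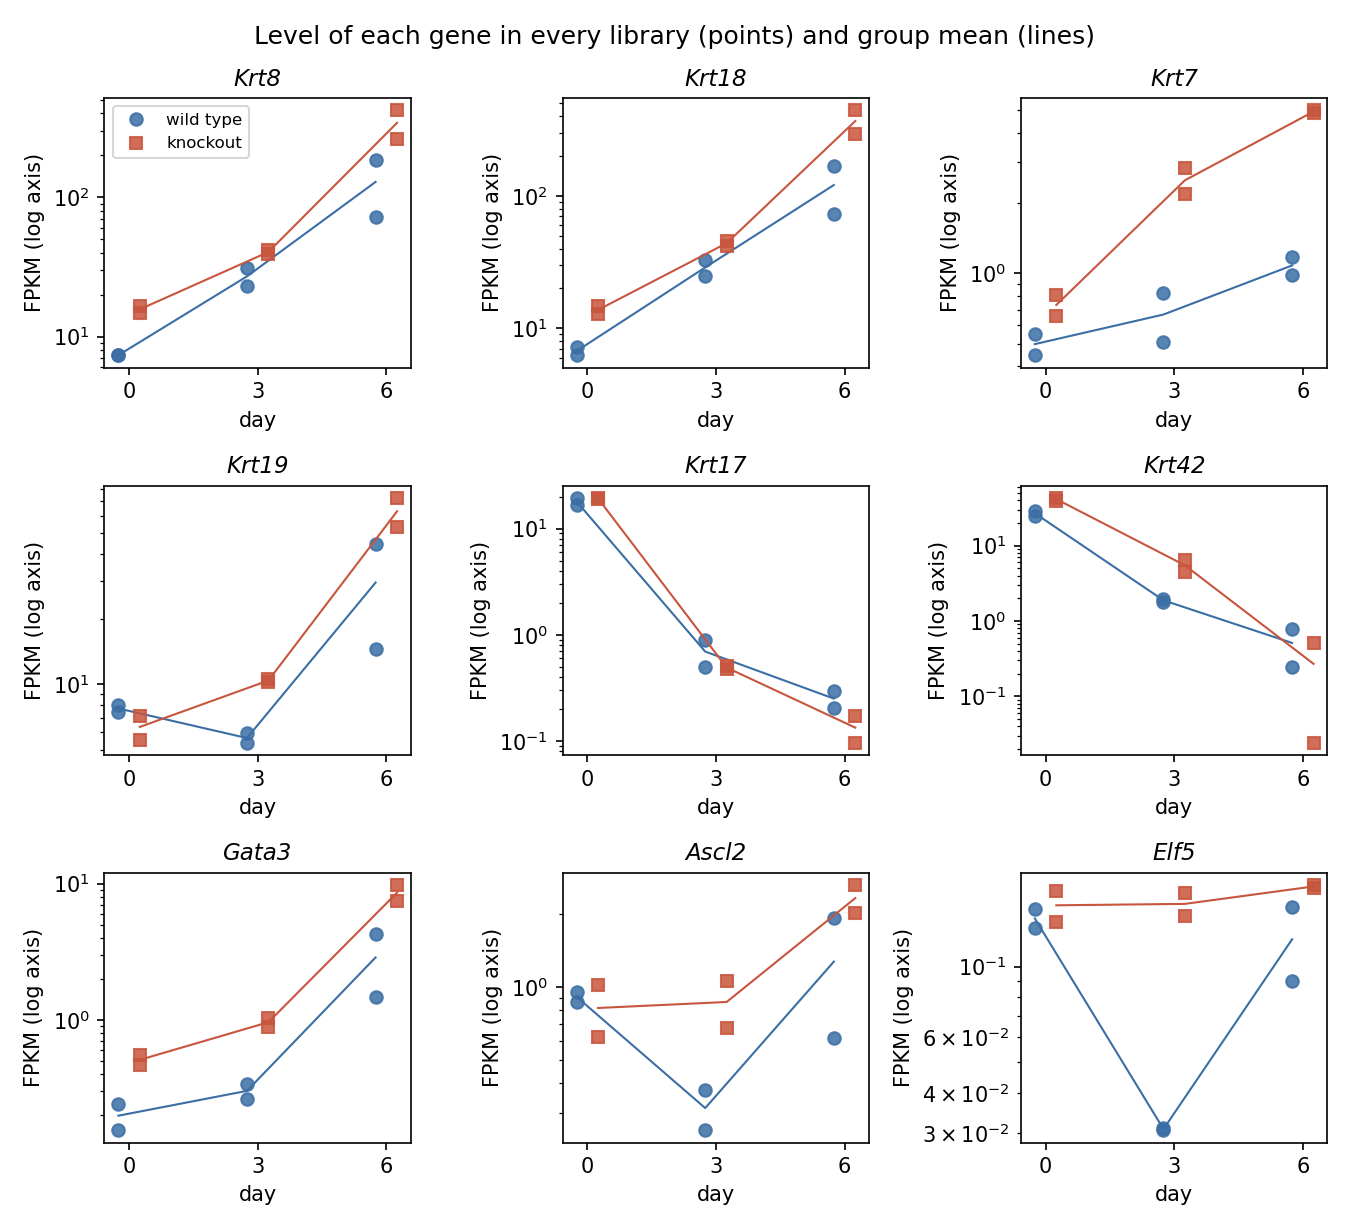
FPKM (log axis) of each gene by day, with a point for each library, blue circles for wild type and red squares for knockout, and lines through the group means of 2 libraries. Krt8, Krt18, Krt19 and Gata3 were highest at day 6, Krt17 and Krt42 were highest at day 0, and knockout libraries stood above wild type libraries for Krt7 on every day.

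Krt8 and Krt18 were the members with the highest levels at days 3 and 6. At day 0 Krt8 stood at 7.34 and 7.36 FPKM in wild type replicates 1 and 2 and at 16.7 and 14.7 in knockout replicates 1 and 2, and Krt18 at 6.25 and 7.21 and at 14.6 and 12.9. At day 3 Krt8 stood at 30.8 and 23.3 in wild type and at 41.7 and 39.3 in knockout, and Krt18 at 32.6 and 25.0 and at 46.0 and 41.9. At day 6 Krt8 stood at 71.9 and 186 in wild type and at 263 and 421 in knockout, and Krt18 at 73.2 and 169 and at 292 and 444. The knockout libraries were thus above both wild type libraries on each day for both genes, and the wild type replicates of day 6 differed widely.

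The pair rose with time in both genotypes. In wild type Krt8 rose by a log2 difference of 1.73 (SE 0.38, adjusted p = 0.00472) from day 0 to day 3 and by 2.07 (SE 0.38, adjusted p = 0.00587) from day 3 to day 6. Krt18 rose by 1.94 (SE 0.34, adjusted p = 0.00147) and 1.92 (SE 0.34, adjusted p = 0.0053). In knockout Krt8 rose by 1.32 (adjusted p = 0.0188) and 3.01 (adjusted p = 3.61e-04), and Krt18 by 1.61 (adjusted p = 0.0044) and 3.01 (adjusted p = 2.38e-04). The first of these, Krt8 in knockout at day 3, lost its call when any 1 of the 4 libraries was left out, with an adjusted p of 0.0616 to 0.0938. A fit of the 4 wild type libraries of days 3 and 6 alone called none of the 6 wild type changes of these days, with an adjusted p of 0.101 for Krt8 and 0.0969 for Krt18. Day 3 libraries enter both time steps of a genotype.

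Relative to wild type, the knockout Krt8 was 2.13-fold as high in the mean at day 0, 1.5-fold at day 3 and 2.66-fold at day 6. Only the day 6 difference passed the threshold, a log2 difference of 1.52 (SE 0.38, adjusted p = 0.0176), against 1.00 (adjusted p = 0.279) at day 0 and 0.58 (adjusted p = 0.525) at day 3. Krt18 was 2.04-fold, 1.52-fold and 3.04-fold as high, and passed at day 6 with 1.69 (SE 0.34, adjusted p = 0.00777), against 0.93 (adjusted p = 0.259) and 0.60 (adjusted p = 0.45). Fitting the 4 day 6 libraries by themselves ended both day 6 calls, with an adjusted p of 0.191 for Krt8 and 0.148 for Krt18. Without knockout replicate 2 the adjusted p was 0.125 and 0.0620. Without wild type replicate 1 the difference was 0.84 for Krt8 (adjusted p = 0.0583) and 1.09 for Krt18, which still passed. At day 0 Krt8 and Krt18 passed, with an adjusted p of 0.0285 and 0.0348, when the day 6 libraries were left out of the fit, and this alternative was chosen after seeing the data. Reads of Krt8 are less certain than those of the other members, because 22.0% of its stretches of 75 bases, the read length, are shared with the pseudogene Krt8-ps.

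Krt7, a type II keratin of simple and glandular epithelia that is also used as a trophoblast marker, was low in all libraries. At day 0 it stood at 0.550 and 0.446 FPKM in wild type and at 0.811 and 0.654 in knockout. At day 3 it stood at 0.510 and 0.823 in wild type and at 2.18 and 2.82 in knockout, and at day 6 at 1.18 and 0.986 and at 4.86 and 4.98. The groups were apart on each day, and the wild type replicates of day 6 lay closer together for Krt7 than for the other keratins that rose.

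The knockout difference of Krt7 passed the threshold at day 3 (log2 difference 1.07, SE 0.14, adjusted p = 0.0122; 3.75-fold in the mean) and at day 6 (1.51, SE 0.14, adjusted p = 3.33e-04; 4.55-fold), and not at day 0 (0.21, adjusted p = 0.542). It was the single member called at day 3. By time it rose in knockout, by 1.01 (adjusted p = 4.64e-04) from day 0 to day 3 and by 0.76 (adjusted p = 0.00184) from day 3 to day 6, while in wild type the differences were 0.15 and 0.33 and neither passed. The increase of the knockout difference from day 0 to day 3 was 0.86 (SE 0.20, unadjusted p = 0.00206), which did not pass over all genes (adjusted p = 0.343). At day 3 the call was lost when the 4 day 3 libraries were fitted alone (adjusted p = 0.0916), without wild type replicate 1 (adjusted p = 0.0765) and without knockout replicate 2 (adjusted p = 0.137). At day 6 it was lost when the 4 libraries of that day were fitted alone (adjusted p = 0.0632). It held in the other 8 alternatives run, with an adjusted p of at most 0.00333.

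Krt19, a small type I keratin without a tail domain, stood at 8.02 and 7.46 FPKM in wild type and at 7.17 and 5.55 in knockout at day 0. At day 3 it stood at 5.93 and 5.37 and at 10.6 and 10.3, and at day 6 at 14.5 and 44.5 and at 53.1 and 72.6. The knockout libraries were below wild type at day 0 and above it later. From day 3 to day 6 Krt19 rose in wild type by 2.00 (SE 0.40, adjusted p = 0.00779) and in knockout by 2.47 (SE 0.40, adjusted p = 0.00108). The wild type rise was lost when the 4 libraries were fitted alone (adjusted p = 0.115) and without wild type replicate 2 of day 3 (adjusted p = 0.0508). The knockout difference passed at day 6 alone, 1.25 (SE 0.40, adjusted p = 0.0421), against -0.26 (adjusted p = 0.833) and 0.78 (adjusted p = 0.401) before. That day 6 call was the least firm of the keratins: it held in 4 of 9 alternatives, and leaving out wild type replicate 1 moved the difference to 0.47 (adjusted p = 0.115), and leaving out wild type replicate 2 to 2.03.

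Krt17, a type I keratin known from epidermal appendages, and its type I neighbour Krt42 followed the opposite course in time. At day 0 Krt17 stood at 19.4 and 16.6 FPKM in wild type and at 19.5 and 19.0 in knockout, and Krt42 at 29.0 and 24.8 and at 39.7 and 43.2. At day 3 Krt17 stood at 0.501 and 0.887 and at 0.510 and 0.471, and Krt42 at 1.79 and 1.96 and at 4.51 and 6.42. At day 6 Krt17 stood at 0.205 and 0.296 and at 0.171 and 0.0959, and Krt42 at 0.772 and 0.247 and at 0.514 and 0.0241. Every day 3 and day 6 library was below every day 0 library for both genes.

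In wild type Krt17 fell by 3.49 on the log2 scale (SE 0.13, adjusted p = 5.87e-07) from day 0 to day 3, and in knockout it fell by 3.76 (adjusted p = 5.98e-07). Krt42 fell by 3.27 (SE 0.23, adjusted p = 9.7e-06) and, in knockout, fell by 2.73 (adjusted p = 3.44e-05). From day 3 to day 6 both fell again, Krt17 by smaller steps of -0.43 (adjusted p = 0.0303) in wild type and -0.40 (adjusted p = 0.0252) in knockout, and Krt42 by -0.95 (adjusted p = 0.0142) and -2.36 (adjusted p = 1.26e-04). The later Krt17 steps lost their call in 5 alternatives in wild type and 4 in knockout. Krt42 lost its wild type step in 5 alternatives, with an adjusted p of 0.0554 to 0.0976. Krt17 did not pass between genotypes on any day (0.10, -0.18 and -0.14). Krt42 was higher in both knockout libraries at days 0 and 3 and did not pass (0.61, adjusted p = 0.265, and 1.15, SE 0.23, adjusted p = 0.0584), and at day 6 its libraries overlapped (-0.26, adjusted p = 0.407). The change of the Krt42 knockout difference from day 3 to day 6, -1.41 (SE 0.32, adjusted p = 0.0473), passed the threshold. This call was lost in 10 of 13 alternatives, with an adjusted p of 0.0588 to 0.17, and at day 6 the knockout replicate 2 value rests on an estimated 1.1 reads.

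**Figure D2:**
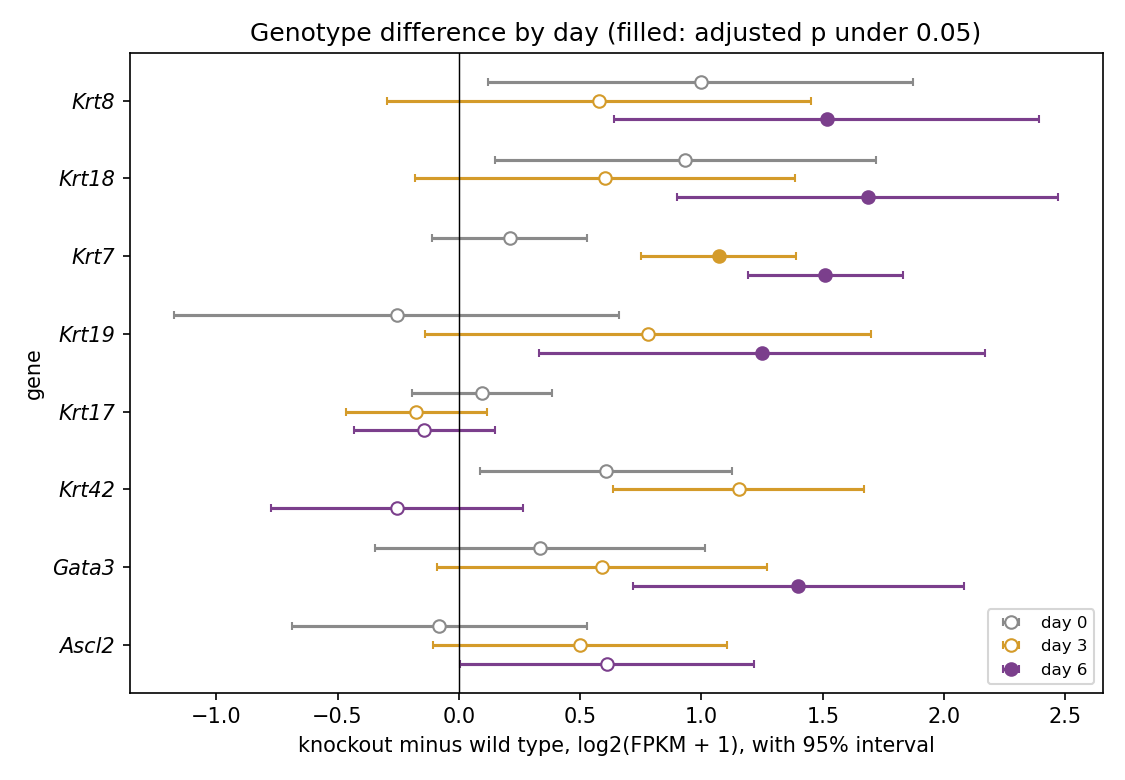
Knockout minus wild type difference, log2(FPKM + 1), with its 95% interval from limma, for the 8 tested genes at days 0, 3 and 6 (grey, yellow and purple). Filled points passed an adjusted p of 0.05: Krt7 at day 3, and Krt7, Krt8, Krt18, Krt19 and Gata3 at day 6.

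Gata3 stood at 0.154 and 0.241 FPKM in wild type and at 0.469 and 0.548 in knockout at day 0. At day 3 it stood at 0.264 and 0.338 and at 0.882 and 1.04, and at day 6 at 1.46 and 4.29 and at 7.44 and 9.73. The knockout libraries were above wild type on each day, and the level was at most 1.04 FPKM until day 6. From day 3 to day 6 Gata3 rose by 1.47 (SE 0.30, adjusted p = 0.00793) in wild type and by 2.28 (SE 0.30, adjusted p = 4.06e-04) in knockout. As ratios of mean FPKM these rises were 9.55-fold and 8.94-fold, so the larger knockout step was not seen without the added 1. The knockout difference passed at day 6 (1.40, SE 0.30, adjusted p = 0.00917) and not at day 0 (0.33) or day 3 (0.59, adjusted p = 0.393). In the mean the knockout was 2.57-fold as high at day 0, 3.19-fold at day 3 and 2.99-fold at day 6. At day 6 the call was lost without knockout replicate 2 (adjusted p = 0.0650) and when the 4 libraries of day 6 were fitted alone (adjusted p = 0.159). Without wild type replicate 1 the difference was 0.85 and passed. Of the Gata3 stretches of 75 bases, 0.101% are shared with the neighbouring transcript 9230102O04Rik, and since the use of strand is not given, overlapping reads cannot be told apart.

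Ascl2 stood at 0.870 and 0.953 FPKM in wild type and at 0.619 and 1.02 in knockout at day 0, at 0.376 and 0.255 and at 0.674 and 1.06 at day 3, and at 0.614 and 1.94 and at 2.03 and 2.64 at day 6. The groups overlapped at day 0 and were apart later, by a narrow margin at day 6, where the lowest knockout library was 1.05 times the highest wild type library. No knockout difference passed (-0.08, 0.50 and 0.61, adjusted p = 0.106 at day 6). The day 6 difference turned on which wild type library was kept: it was 1.04 (adjusted p = 0.00608) without replicate 2 and 0.18 (adjusted p = 0.551) without replicate 1. By time, the rise of 0.84 (SE 0.27, adjusted p = 0.024) from day 3 to day 6 in knockout passed, and it was lost without knockout replicate 1 of day 3 (adjusted p = 0.127) or knockout replicate 2 of day 6 (adjusted p = 0.119). The wild type difference over the same days was 0.73 (SE 0.27, adjusted p = 0.0615). It passed with a pseudocount of 0.1 (adjusted p = 0.0340) and without wild type replicate 1 of day 6 (adjusted p = 0.00322), and was 0.30 without wild type replicate 2 of day 6. The steps of the genotypes differed by 0.11 (adjusted p = 0.884). As ratios of mean FPKM the order was reversed, with a rise of 4.04-fold in wild type and 2.69-fold in knockout.

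Elf5 was near the floor throughout. It stood at 0.132 and 0.151 FPKM in wild type and at 0.173 and 0.138 in knockout at day 0, at 0.0306 and 0.0312 and at 0.171 and 0.144 at day 3, and at 0.0901 and 0.154 and at 0.180 and 0.177 at day 6. These values rest on an estimated 1.06 to 11 reads per library. At day 3 the knockout libraries were above wild type, 5.09-fold in the mean. In a fit of 20650 genes without the minimum, that difference was 0.17 (SE 0.03, adjusted p = 0.0749). In the same fit wild type Elf5 passed the threshold between days, at -0.15 (adjusted p = 0.00658) from day 0 to day 3 and 0.12 (adjusted p = 0.0293) from day 3 to day 6. These wild type calls rest on the day 3 libraries, at an estimated 2.08 and 1.06 reads.

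Across the members tested, 0 of 8 passed limma's adjusted threshold at day 0, where 0.216% of the 12472 genes were called higher and 0.152% lower. Limma's unadjusted p was under 0.05 at day 0 for 3 of the 8 and for 1829 of the 12472 genes. At day 3, 1 of 8 was higher, with 1.12% of all genes called higher and 0.0722% lower. At day 6, 5 of 8 were higher and 0 lower, with 17.9% and 16.2% of all genes called. That count was 1 without knockout replicate 2, 3 without wild type replicate 1, 6 without wild type replicate 2 and 0 in the fit of the 4 day 6 libraries. The median difference of the 8 was 0.27 at day 0, 0.60 at day 3 and 1.32 at day 6, against -0.0022, -0.00423 and 0.0207 for all genes. Krt7, Gata3 and Ascl2 are among these 8 only through knockout libraries. Knockout libraries lay wholly above wild type libraries for 5 members at day 0, 7 at day 3 and 6 at day 6, where 24.3%, 29% and 34.4% of all genes did so, and wholly below for 1 member at day 0 (Krt19), 0 at day 3 and 1 at day 6 (Krt17), where 25.5%, 31.3% and 29.3% of all genes did so. The change of the difference from day 3 to day 6 called 1 of 8, Krt42, lower, with 1.3% of all genes higher and 3.21% lower. Without wild type replicate 2 of day 6 it called 5, with Krt8 (1.62), Krt18 (1.68), Krt19 (1.25) and Gata3 (1.36) added as higher. The change from day 0 to day 3, a comparison added after seeing the data, called 0 of 8, with 0.0321% of all genes higher and 0.00802% lower. Its unadjusted limma p was under 0.05 for 1 of the 8 and for 956 of the 12472 genes. By time in wild type, 2 of 8 rose and 2 fell from day 0 to day 3, where 25.5% of all genes rose and 30.2% fell, and 4 rose and 2 fell from day 3 to day 6, where 17.4% and 18.4% did. In knockout 3 rose and 2 fell by day 3, where 24.6% and 28% of all genes did, and 6 rose and 2 fell by day 6, where 29.2% and 29.9% did. Comparisons within a day share no library, but each day's libraries enter the time steps as well.

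**Figure D3:**
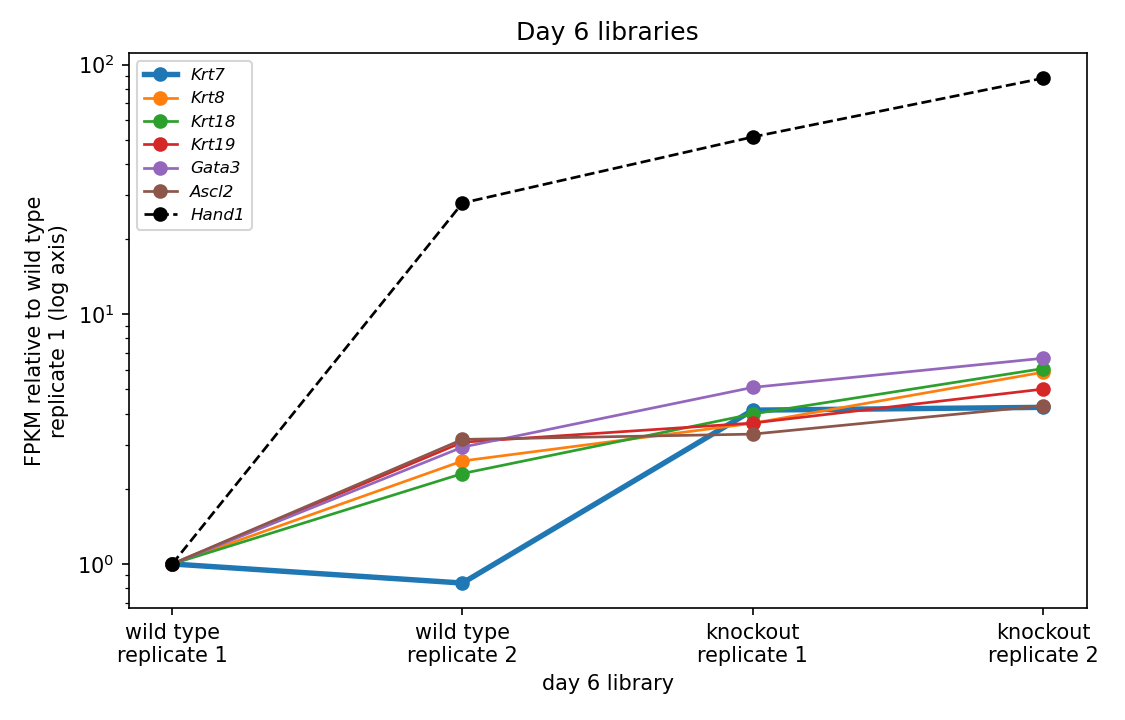
FPKM of 6 members and of Hand1 in the 4 day 6 libraries, divided by wild type replicate 1, on a log axis (lines join the values of 1 gene). Wild type replicate 2 lay above replicate 1 for all of them but Krt7, which was 0.839 times as high.

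The day 6 wild type libraries differed from each other, with 393 of 12472 genes (3.15%) apart by over 2-fold. Krt8, Krt18, Krt19, Gata3 and Ascl2 were 2.59, 2.30, 3.07, 2.94 and 3.15 times as high in replicate 2 as in replicate 1. Krt7 was 0.839 times as high. The lowest knockout library exceeded the highest wild type library 4.13-fold for Krt7, 1.42-fold for Krt8, 1.73-fold for Krt18 and for Gata3, and 1.19-fold for Krt19. Hand1, a basic helix-loop-helix factor of trophoblast giant cells and extraembryonic mesoderm, stood at 2.67 and 74.6 FPKM in wild type and at 137 and 236 in knockout. Rhox6 and Rhox9, X-linked homeobox genes of the placenta, went the other way in wild type, at 2.66 and 0.351 FPKM and at 3.10 and 1.32, and stood at 11.7 in both knockout libraries and at 15.0 and 16.4. This comparison of the day 6 libraries, and the genes shown in it, were chosen after their values were seen.

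Among other trophoblast genes, a list of 26 that holds 17 tested, 0 passed at day 0. Limma's unadjusted p at day 0 was under 0.05 for 4 of the 17 and for 1829 of the 12472 genes. At day 3 Rhox6 (log2 difference 2.82), Rhox9 (2.68) and Tfap2c (1.23), an AP-2 factor of trophoblast, were higher in knockout, as were 1.12% of all genes. They were already present at day 0, with mean FPKM of 6.48 in wild type and 17.1 in knockout for Rhox6, and 7.62 and 18.5 for Rhox9. Tfap2c had means of 35.0 and 49.7 at day 0 and of 9.89 and 14.2 at day 6. At day 6, 14 of the 17 were higher and 0 lower, where 17.9% and 16.2% of all genes were called. The median over the 17 tested was 1.62. Those higher were Cdx2, Dlx3, Fgfr2, Gata2, Hand1, Msx2, Peg10, Phlda2, Plac1, Plet1, Rhox6, Rhox9, Tead4 and Tfeb. Eomes, Ets2 and Tfap2c did not pass. Cdx2, Dlx3 and Plac1 reached the minimum mean only through the knockout libraries of day 6, so these counts are a description. Cdx2, a homeobox factor of the trophectoderm, differed by 2.20 (SE 0.43), Plet1 by 1.68 (SE 0.19), and Hand1 by 3.44 (SE 1.08). Plac1, a placental gene, stood at 0.558 and 3.68 FPKM in wild type and at 6.34 and 8.43 in knockout. Markers of differentiated placental cells varied. Synb of the syncytiotrophoblast was 0 in all 12 libraries, and Prl3d1 and Prl2c2 reached at most 0.0978 and 0.216 FPKM. Gcm1 and Syna, also of the syncytiotrophoblast, reached at most 1.48 and 0.558 FPKM. Tpbpa of the spongiotrophoblast stood at 0.355 and 0.0284 FPKM in wild type and at 5.32 and 4.46 in knockout at day 6, the lowest knockout library 12.5 times the highest wild type library. Tpbpa was under the minimum mean and was not tested. Rhox4b, another gene of the list, reached at most 0.0946 FPKM.

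Several of these genes also mark other cell types, whose lists are given here for day 6. On that day 17.9% of all genes were called higher and 16.2% lower. Of 9 tested genes of extraembryonic mesoderm, 7 were higher in knockout (Ahnak, Bmp4, Foxf1, Hand1, Msx1, Pdgfra and Tbx20), with a median of 2.37, and the summed FPKM of the 12 listed was 25.7 and 205 in wild type and 373 and 599 in knockout. Of 12 tested genes of visceral and parietal endoderm, 6 were higher (Col4a1, Gata4, Gata6, Lamb1, Pth1r and Sparc), with a median of 0.55. The summed FPKM of the 18 listed was 161 and 248 in wild type and 275 and 413 in knockout, while Afp reached at most 0.0350. Of 7 tested genes of surface ectoderm and amnion, 3 were higher (Dlx3, Isl1 and Msx2), with a median of only 0.09. Dlx3 and Msx2 are also in the trophoblast list. The sum of the 15 listed was 20.3 and 50.4 in wild type and 72.4 and 91.5 in knockout. Msx2 alone was 3.02 and 32.9 and, in knockout, 50.4 and 68.1 of it. Trp63 reached at most 0.0736. Dlx3, Isl1 and, in the fibroblast list, Twist2 reached the minimum mean only through the knockout libraries of day 6. Lrrn4 of mesothelium and Fbn1 and Twist2 of fibroblasts were also higher, and Sox2 of stem cells was lower. Their part in the keratin and Gata3 differences was not tested.

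**Figure D4:**
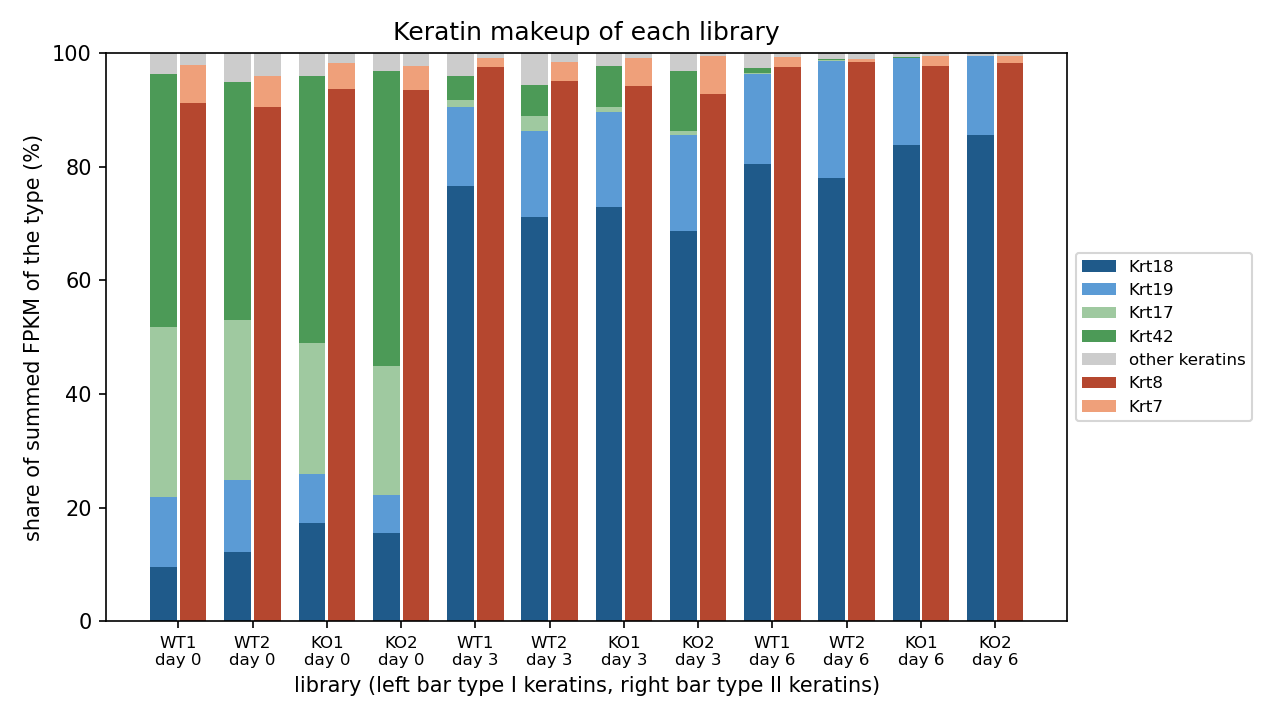
Share (%) of the summed FPKM of type I keratins (left bar) and of type II keratins (right bar) taken by each member in the 12 libraries (WT wild type, KO knockout). Krt17 and Krt42 made up 70.0% to 74.7% of type I at day 0, and Krt18 with Krt19 most of it at days 3 and 6.

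The 6 keratins made up 95.02% to 99.50% of the summed FPKM of all keratins in each library, so they are nearly all of the keratin RNA measured. Among the 17 further keratins listed, Krt10 was the 1 tested, and it did not pass on any day. The makeup of type I changed: Krt17 and Krt42 made up 70.0% to 74.7% of it at day 0, 5.39% to 11.3% at day 3 and 0.0231% to 1.07% at day 6. At day 0 the summed FPKM of type I was 65.2 and 59.0 in wild type and 84.5 and 83.3 in knockout. That of type II was 8.05 and 8.14 in wild type and 17.8 and 15.7 in knockout. The ratio of type I to type II FPKM was 8.09 and 7.25 in wild type and 4.74 and 5.31 in knockout at day 0. This ratio was thus smaller in both knockout libraries, although both sums were higher in them. It was 1.35 to 1.44 at day 3 and 1.14 to 1.29 at day 6. Krt8 and Krt18, whose proteins pair, kept a ratio of 0.902 to 1.17 in all 12 libraries. The sums by type were chosen after seeing the data, and are given with no test.

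Over the 12 libraries Krt8 and Krt18 had a Pearson's r of 0.998 of their log2 values, and Krt17 and Krt42 of 0.939, each pair being neighbours in the genome. The genes whose pattern was most like the mean of Krt8 and Krt18 were Klhl26 (r = 0.995), the desmosomal plakin gene Dsp (0.995), Snx33 (0.994), Plxnb2 (0.994) and Sh3rf1 (0.993). These values share the same libraries and the course of time, and describe them. Dsp, whose protein anchors keratin filaments to desmosomes, stood at 2.96 and 2.66 FPKM in wild type and at 5.08 and 4.99 in knockout at day 0. At day 6 it stood at 17.8 and 34.2 and at 56.7 and 69.6, and its knockout difference there was 1.31 (SE 0.25, adjusted p = 0.00564). Of 18 tested genes of desmosomes and epithelial junctions, 1 was higher in knockout at day 0 (Cldn7, 0.81, adjusted p = 0.0455), as were 0.216% of all genes. At day 3, 2 of the 18 were higher (Cldn4 and Perp), as were 1.12% of all genes. At day 6, 7 were higher (Cldn4, Dsg2, Dsp, Jup, Perp, Pkp3 and Plec), when 17.9% of all genes were called higher. The median over the 18 was 0.21 at day 6. Over time most of the list did not follow Dsp. From day 3 to day 6 in knockout 3 rose (Dsp, Plec and Tjp1) and 10 fell, where 29.2% of all genes rose and 29.9% fell. The 10 include the adhesion genes Cdh1 (-1.31) and Epcam (-0.91). In wild type over the same days 1 rose (Dsp) and 7 fell, where 17.4% and 18.4% of all genes did. Of 9 tested genes of other intermediate filament proteins, 4 were higher at day 6 (Lmna, Lmnb2, Prph and Vim).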

How the data were processed

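Total RNA of 12 embryoid body libraries was sequenced as single-end reads of 75 bases, with Trim Galore 0.4.1 for trimming and TopHat2 2.0.13 for mapping to mm10, per the labels. The authors deposited FPKM values per gene. Cufflinks 2.2.1, Cuffdiff and HTSeq 0.6.1 are named in the submitters' processing notes with no role, and neither annotation nor strand use is given in the sources used here. Each column was matched to a sample by genotype, day and replicate. limma 3.58.1 in R 4.3.3 was fitted to log2(FPKM + 1) with 1 mean per group, a variance trend and two-sided tests over 12472 genes whose mean FPKM reached 1, with Benjamini-Hochberg adjustment. The table's 92 spike-in rows were left out. The script was tested on simulated data. The members, the 10 gene lists and the tests were chosen with earlier results of these data known. Genes named are the members, Cxxc5, 3 Y-linked genes, every listed gene past the threshold between genotypes, markers at or near 0 and the 5 genes most like Krt8 and Krt18; others are said to be chosen after seeing their values. A stem cell table holds 6 numbered replicates, 3 per genotype, where the labels give 2 samples per genotype. None could be tied to a sample, so its values were not used here. They had been seen before that decision, and for Krt8 they overlapped between the genotypes, unlike the day 0 libraries. ChIP-seq samples were not analysed here. Positions and promoter windows are from RefSeq on GRCm38.p6, in which 7 of 9 members had a window. Depth was estimated on 3654 genes. Figures were drawn with matplotlib 3.10.9.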

Additional observations from a re-analysis of the deposited data

Results flagged for a closer look

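The knockout difference of Krt42 changed between days, from 1.15 at day 3 to -0.26 at day 6, a change of -1.41 (log2(FPKM + 1), SE 0.32, adjusted p = 0.0473 by limma). It stands out because the difference between the days was itself tested and passed, but the call was lost in 10 of 13 alternatives (adjusted p = 0.0588 to 0.17). Krt42 fell in both genotypes over these days, and at day 6 its 4 libraries stood at 0.772, 0.247, 0.514 and 0.0241 FPKM, the last resting on an estimated 1.1 reads.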

How the results depend on the processing

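Of 776 recomputed member results, 685 kept their direction and side of the threshold, among them results that passed in neither fit. The 685 are thus not a count of calls that held. Of the others, 51 lost the call, 23 gained it and 17 changed sign. Of those 17, 0 had passed the threshold in either fit. With quantile normalization the sign changes were Krt7 (-0.18) and Gata3 (-0.18) from day 0 to day 3 in wild type and Ascl2 (-0.26) in knockout. With a pseudocount of 0.1 they were Krt17 (-0.21) and Ascl2 (-0.20) in the change of the knockout difference from day 3 to day 6. Leaving out 1 library gave that change as -0.13 to 0.20 for Krt17, -0.31 to 1.25 for Krt19 and -0.32 to 0.54 for Ascl2. It gave knockout differences of -0.0129 to 0.20 for Krt17 and -0.24 to 0.0795 for Ascl2 at day 0 and -0.54 to 0.0265 for Krt42 at day 6, and -0.12 to 0.20 for Ascl2 from day 0 to day 3 in knockout. Fitting only the libraries compared, which leaves fewer degrees of freedom, called 0 members at day 3, 0 at day 6, 0 for wild type day 6 against day 3 and 0 for the change of the knockout difference from day 3 to day 6, while from day 0 to day 3 it called 6 in wild type (4 in the fit of all libraries) and 7 in knockout (5). The change from day 3 to day 6 (1 member, Krt42) also gave 0 with a pseudocount of 0.1, with no filter and with the replicate block, and 0 to 5 when 1 library was left out (5 without wild type day 6 replicate 2). At day 3 quantile normalization called 2, and leaving out 1 library 0 to 1. At day 6 leaving out 1 library called 1 to 6, and wild type day 6 against day 3 3 to 6. Without the day 6 libraries, an alternative added after seeing the data, 2 members passed at day 0 and 4 at day 3. In that fit the SE of the Krt8 difference at day 0 was 0.13, against 0.38 in the fit of all libraries. The shares of all genes called in the alternatives are not given here, so the member counts in them are a description. Where 1 library of a group is left, it is assumed to vary like the other groups. The cause of these moves was not tested. Replicate numbers of different genotypes are different lines, and the deviations of replicate 1 correlated at 0.0274, 0.0834 and 0.243 between genotypes on the same day. Within wild type these deviations correlated at -0.0248 between days 0 and 3 and at 0.00403 between days 3 and 6. Within knockout they correlated at -0.00945 and 0.0755. With the block Ascl2 passed from day 3 to day 6 in wild type (adjusted p = 0.0385). The stem cell comparison and its alternatives were not run. With 2 libraries per group and values near 1 FPKM for Krt7, Gata3 and Ascl2, depth limits the low values, most of all those of Elf5.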
